A study of Homo sapiens with 9 samples.

Results

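The 8 genes L1CAM, CEACAM7, CEACAM1, NPTXR, SHANK3, TSPAN8, NLRP7 and FAM43A were followed through the transcriptomes of Huh-7 hepatoma cells and of cells lacking APOB or MTTP. They are 8 of the 58735 genes in the files and were found by gene symbol, with 1 entry each. The genes were chosen by their measured levels in these same libraries, because these differed between the clones, so the levels and fold changes of the 8 genes are given as a description, without a test. The files held 9 libraries of poly-A RNA, 3 from each of 3 groups. Huh-7 is a human hepatoma line, and the wild-type cells served as the control for both knockouts. Ako-3 cells carry a knockout of APOB, the gene of the structural protein of very low density lipoprotein, made with Cas9 and 3 guide RNAs. Mko-3 cells carry a knockout of MTTP, the gene of the microsomal triglyceride transfer protein that loads lipid onto apoB. Each knockout is represented by 1 clone, so the effect of the missing gene and the character of the clone cannot be told apart. Cells of every group were kept in serum-free medium overnight before RNA was taken.

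Most of these genes are better known from tissues other than liver. L1CAM and the CEACAM proteins belong to the immunoglobulin superfamily and hold cells together at the plasma membrane, the former on growing axons and on invasive carcinoma cells, the latter largely on epithelium. NPTXR, a neuronal pentraxin anchored in the membrane, gathers AMPA-type glutamate receptors at excitatory synapses, where SHANK3 is a scaffold of the postsynaptic density. TSPAN8 is a tetraspanin of the digestive tract epithelium, whereas NLRP7 is a cytosolic protein of the NOD-like receptor family and little is known of FAM43A. NLRP7 is therefore neither a surface nor a synaptic gene, although it is grouped with them here.

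CEACAM7 and its relative CEACAM5 had the same order of levels in the 3 groups, whereas CEACAM1 varied little. For that reason the sequences just upstream of the RefSeq starts of these 3 genes are shown. They are reference sequences from RefSeq (GRCh38.p14), each of 150 bases, reading 5′ to 3′ toward the gene and ending 101 bases before its RefSeq start. They lie at chr19:41688371-41688520 (minus strand) for CEACAM7, chr19:41708376-41708525 (plus strand) for CEACAM5 and chr19:42528582-42528731 (minus strand) for CEACAM1. Those of CEACAM7 and CEACAM1 fall inside the gene spans given below, whose 5′ ends lie farther upstream than the RefSeq starts. Capitals mark bases that differ from, or are absent in, CEACAM1.
CEACAM7: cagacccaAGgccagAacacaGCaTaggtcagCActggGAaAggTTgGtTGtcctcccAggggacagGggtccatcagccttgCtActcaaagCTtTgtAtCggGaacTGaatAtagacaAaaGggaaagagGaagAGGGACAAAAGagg
CEACAM5: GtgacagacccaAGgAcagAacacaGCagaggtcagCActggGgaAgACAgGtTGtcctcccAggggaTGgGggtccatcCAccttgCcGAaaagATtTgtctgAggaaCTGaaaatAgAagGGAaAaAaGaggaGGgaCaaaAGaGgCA
CEACAM1: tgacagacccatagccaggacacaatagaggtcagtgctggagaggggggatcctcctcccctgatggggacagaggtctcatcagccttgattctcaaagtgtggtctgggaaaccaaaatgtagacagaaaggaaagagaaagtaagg
The upstream stretches of CEACAM5 and CEACAM7 were identical in 79.5% of 156 aligned columns. Each was less like that of CEACAM1, with 67.3% of 159 columns for CEACAM7 and 64.3% of 157 for CEACAM5. Any link between this likeness and the levels was not tested, and CEACAM6 was not compared. A RefSeq promoter entry was matched for 7 of the 8 genes, the exception being NPTXR. The entries of L1CAM, CEACAM7, CEACAM1, TSPAN8 and NLRP7 lie inside the gene spans given below. In the 300 bases around the RefSeq start (250 before and 50 after), the GC box GGGCGG was present in entries of L1CAM, CEACAM1, TSPAN8, NLRP7 and FAM43A. Of all 35097 promoters of that length, 44.9% hold it on either strand. The HNF1 motif GTTAAT, held by 6.88% of promoters, was present in entries of TSPAN8 and NLRP7. No entry of the 7 genes held TATAAA (11.5% of promoters), the AP-1 motif TGANTCA (7.71%), the cAMP response element TGACGTCA (1.85%) or the E-box CACGTG (7.25%), and CEACAM5 held the E-box once. Both strands were searched, and the 6 motifs were chosen with the sequences in view.

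The libraries held 14638727 to 20179760 counts. Levels are given in CPM, the counts of a gene relative to all counts of its library, after TMM scaling over the 9 libraries. The edited genes went in the direction of their labels. APOB was 3322 ± 602 CPM in Huh-7, 1319 ± 84.8 in Ako-3 and 3278 ± 150 in Mko-3 cells (SD, n = 3). MTTP was 627 ± 26.2, 574 ± 29.3 and 87.5 ± 4.10 CPM in the same order. Hepatocyte markers were abundant in every library, their sum over 9 genes lying between 18100 and 23170 CPM. The control libraries differed more among themselves than those of either clone, with a chi-square per degree of freedom of 6.93 to 8.88 between pairs of control libraries against 2.44 to 3.45 within the clones. The labels call the libraries of a group biological replicates without saying what was separate, so a p-value here measures only the spread between libraries.

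A gene was said to depart from the control when its log2 fold change was at least 1 in size and the 3 libraries of one group did not overlap those of the other. By this rule 5 of the 8 genes departed in Ako-3 cells, TSPAN8 and NLRP7 upward and L1CAM, NPTXR and FAM43A downward. Over all genes tested in Ako-3 cells, 3.47% departed upward and 4.92% downward. In Mko-3 cells 6 of the 8 departed, L1CAM, CEACAM7, NPTXR and NLRP7 upward and SHANK3 and FAM43A downward, where 3.78% of all genes departed upward and 7.1% downward. Between the clones, 4 genes were higher in Mko-3 (L1CAM, CEACAM7, NPTXR and FAM43A) and SHANK3 was lower, against 2.28% and 3.46% of all genes. Because the 8 genes were chosen on these same contrasts, nothing follows from their share being above that of all genes. The median size of the log2 fold change was 1.40 over the 8 genes and 0.32 over all genes tested in Ako-3 cells, and 1.80 and 0.34 in Mko-3 cells. All 8 passed the filter on low counts in every comparison, L1CAM in those with Ako-3 through the other group.

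**Figure D1:**
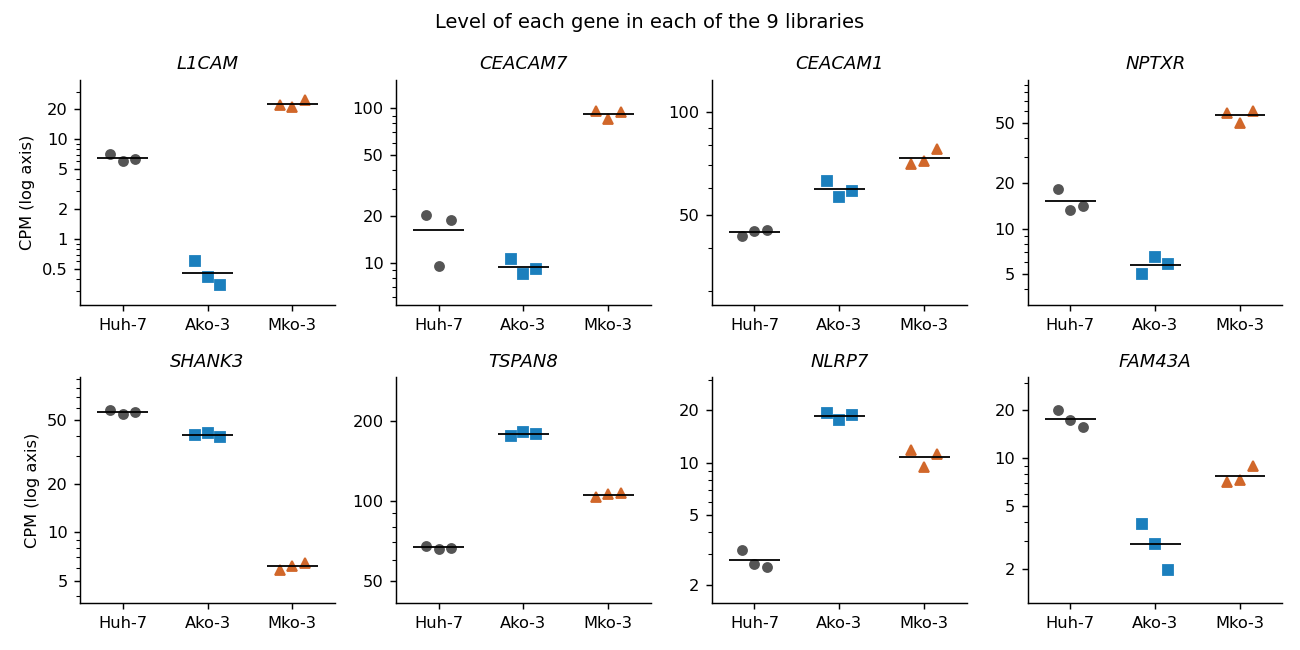
Level of each of the 8 genes in every library, in CPM on a log axis with its own range in each panel. Circles are Huh-7, squares Ako-3 and triangles Mko-3 libraries, and the horizontal line is the mean of 3 libraries. L1CAM, CEACAM7 and NPTXR are highest in Mko-3, TSPAN8 and NLRP7 in Ako-3, and SHANK3 and FAM43A in Huh-7 cells.

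L1CAM, the neural adhesion molecule (ENSG00000198910, hg38 chrX:153861514-153886174, minus strand), departed from the control in both clones and in opposite directions. Its level was 7.11, 6.05 and 6.35 CPM in the 3 Huh-7 libraries, 0.61, 0.41 and 0.35 in Ako-3 and 22.1, 20.8 and 24.7 in Mko-3. The groups did not overlap, and the Ako-3 values rest on 10, 8 and 6 reads against 362 to 387 reads in Mko-3. The log2 fold change against Huh-7 was −3.85 ± 0.27 (SE) in Ako-3 and 1.75 ± 0.12 in Mko-3. Between the clones the difference was 5.61 ± 0.19, or 48.8-fold, the widest among the 8 genes. Of the 7269 exonic bases of L1CAM in GENCODE 44, 11.0% overlap exons of other genes, mainly the antisense L1CAM-AS1 and an unnamed gene, and the sources used here do not state whether counting used strand.

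CEACAM7 is a membrane-anchored adhesion molecule of the colon epithelium (ENSG00000007306, chr19:41673307-41706976, minus strand). It was measured at 20.4, 9.60 and 19.0 CPM in Huh-7, 10.7, 8.51 and 9.10 in Ako-3 and 95.9, 84.9 and 94.7 in Mko-3. All Mko-3 libraries lay far above the rest, whereas the second Huh-7 library fell among the Ako-3 libraries. Mko-3 cells thus departed upward by 2.44 ± 0.27 (log2, SE), and Ako-3 cells did not depart, at −0.84 ± 0.27. Without that Huh-7 library the Ako-3 value became −1.10, and the groups no longer overlapped. This was the case closest to the threshold on the outside, and FAM43A in Mko-3 cells, at −1.23, the closest on the inside.

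CEACAM1, whose cytoplasmic tail carries inhibitory signals and which in liver is tied to insulin clearance, lies on the same chromosome arm (ENSG00000079385, chr19:42507304-42561234, minus strand). Huh-7 libraries gave 43.5, 44.7 and 45.3 CPM, Ako-3 libraries 62.9, 56.3 and 58.9 and Mko-3 libraries 70.4, 72.0 and 77.8. Although no group overlapped another, neither clone reached a 2-fold change, with log2 values of 0.39 ± 0.08 (SE) in Ako-3 and 0.69 ± 0.07 in Mko-3. CEACAM1 therefore did not separate the clones by the rule, their difference being 0.30 ± 0.06. CEACAM1 and CEACAM7 share no stretch of 75 bases in their transcripts, and 1.42% of the 75-base stretches of CEACAM1 occur in other genes.

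NPTXR, the neuronal pentraxin receptor (ENSG00000221890, chr22:38818452-38843982, minus strand), repeated the order seen for L1CAM. Its levels were 18.3, 13.3 and 14.2 CPM in Huh-7, 5.00, 6.55 and 5.85 in Ako-3 and 58.9, 50.03 and 60.7 in Mko-3. No library of one group reached those of another. Ako-3 departed downward (−1.42 ± 0.15, log2, SE) and Mko-3 upward (1.85 ± 0.11), a difference between clones of 3.27 ± 0.10 or 9.64-fold.

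SHANK3, the postsynaptic scaffold (ENSG00000251322, chr22:50674415-50733298, plus strand), was lowest in Mko-3 cells. Huh-7 libraries gave 57.9, 54.6 and 56.1 CPM, Ako-3 libraries 40.5, 42.0 and 39.4, and Mko-3 libraries 5.82, 6.16 and 6.48. The Mko-3 level was 10.7% of the control (log2 −3.23 ± 0.10, SE). Ako-3 libraries were also below every Huh-7 library, but by less than 2-fold (−0.50 ± 0.07).

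TSPAN8 (ENSG00000127324, chr12:71125085-71441898, minus strand), a tetraspanin found on digestive tract epithelium and in many carcinomas, was the opposite case, with Ako-3 the clone that departed. It stood at 67.7, 66.3 and 66.8 CPM in Huh-7, 175, 182 and 178 in Ako-3 and 104, 106 and 107 in Mko-3. The groups were far apart relative to their spread, as the SD within a group was at most 3.51 CPM. The log2 fold change was 1.38 ± 0.06 (SE) in Ako-3 and 0.62 ± 0.06 in Mko-3, below the threshold in the latter.

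NLRP7, a NOD-like receptor protein known from maternal mutations in recurrent hydatidiform mole (ENSG00000167634, chr19:54923509-54966312, minus strand), was higher in both clones. The 3 Huh-7 libraries held 3.19, 2.63 and 2.52 CPM, those of Ako-3 19.3, 17.6 and 18.7, and those of Mko-3 11.8, 9.5 and 11.2. The increase was 6.51-fold in Ako-3 (log2 2.70 ± 0.15, SE) and 3.79-fold in Mko-3 (1.92 ± 0.17). Of its 75-base stretches, 5.73% also occur in NLRP2, whose span overlaps its own on the other strand.

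FAM43A (ENSG00000185112, chr3:194686544-194689037, plus strand) was lower in both clones. Its values were 20.2, 17.4 and 15.7 CPM in Huh-7, 3.84, 2.89 and 1.97 in Ako-3 and 7.13, 7.25 and 8.97 in Mko-3. Every library of Ako-3 lay below every one of Mko-3, which in turn lay below the control. The log2 fold change was −2.65 ± 0.18 (SE) in Ako-3 and −1.23 ± 0.13 in Mko-3, so that the clones differed by 1.42 ± 0.18. The direction of departure was thus shared by the clones for NLRP7 and FAM43A and opposed for L1CAM and NPTXR, while CEACAM7 and SHANK3 departed in Mko-3 alone and TSPAN8 in Ako-3 alone.

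**Figure D2:**
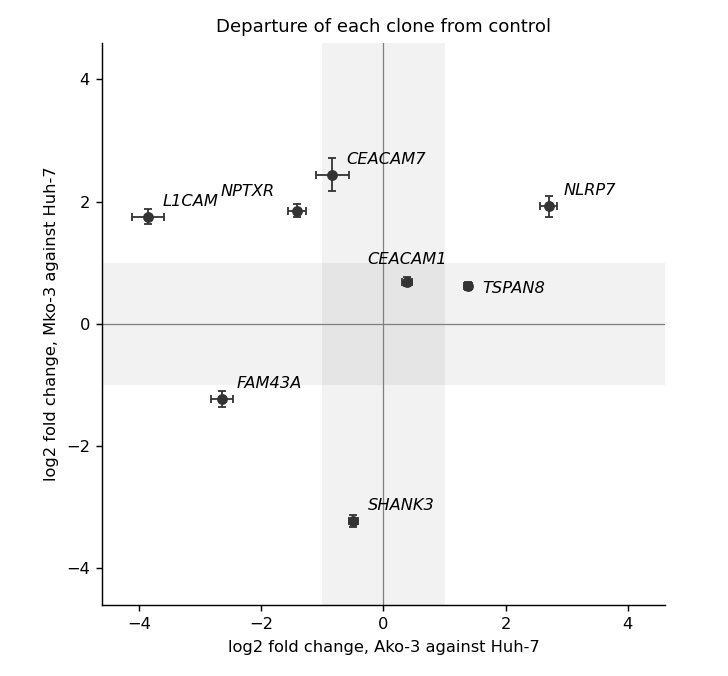
Log2 fold change of the 8 genes in Ako-3 against Huh-7 (horizontal axis) and in Mko-3 against Huh-7 (vertical axis), with bars of 1 standard error derived from the edgeR fit. The grey bands mark changes of less than 2-fold. L1CAM and NPTXR lie at upper left (down in Ako-3, up in Mko-3), NLRP7 at upper right, FAM43A at lower left and CEACAM1 inside both bands. Both axes use the same control libraries.

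To compare levels between genes, the deposited FPKM values were used, which are counts divided by gene length. TSPAN8 was the most abundant of the 8 in every group, with a mean of 26.6 FPKM in Huh-7, 69.5 in Ako-3 and 41.3 in Mko-3 cells. In Huh-7 cells CEACAM1 (8.06 ± 0.16 FPKM, SD, n = 3), SHANK3 (7.54 ± 0.25), FAM43A (7.13 ± 0.91) and CEACAM7 (6.17 ± 2.23) followed, the range of FAM43A overlapping those of the other 3 and that of CEACAM7 overlapping that of SHANK3. NPTXR had 2.64 FPKM, and L1CAM (0.90 ± 0.08) and NLRP7 (0.71 ± 0.09) were lowest, near the middle of the genes with any reads (percentiles 53.3 and 50.7). The order was changed in the clones. CEACAM7 held the second place in Mko-3 with 34.2 FPKM, at the percentile 94.9, and SHANK3 was there the lowest with 0.81. In Ako-3 cells L1CAM was lowest with 0.06 FPKM.

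The relatives of the adhesion molecules were examined next, in lists that do not hold the 8 genes. A gene was called at an edgeR adjusted p (Benjamini-Hochberg) of at most 0.05 and a log2 fold change of at least 1 in size. By this rule 3.52% of all tested genes were called higher and 5.0% lower in Ako-3, 3.82% and 7.22% in Mko-3, and 2.26% and 3.47% in Mko-3 against Ako-3. Among 11 L1 and contactin molecules, most were hardly expressed, CHL1 having no read and NFASC at most 4 reads in any library. NRCAM was well expressed at 57.6 ± 7.42 CPM in Huh-7, 39.5 ± 2.80 in Ako-3 and 61.6 ± 4.10 in Mko-3 (SD, n = 3), and it was not called in any comparison. CNTN1, a contactin, was called higher in Mko-3 cells at a log2 fold change of 1.54, from 4 to 9 reads per Huh-7 library to 14 to 24. As CNTN1 passed the low-count filter through the Mko-3 libraries only, it could not have been called lower. No member of 2 tested was called in Ako-3 cells by edgeR or DESeq2, though both had an unadjusted p under 0.05.

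CEACAM5, the carcinoembryonic antigen, was the called member among 20 CEACAM and pregnancy-specific glycoprotein genes, of which 4 could be tested. It had 1.81 ± 0.47 CPM in Huh-7, 0.52 ± 0.14 in Ako-3 and 9.04 ± 2.35 in Mko-3 cells (SD, n = 3). CEACAM5 was lower in Ako-3 (log2 −1.82, edgeR adjusted p = 0.00037) and higher in Mko-3 (2.30, edgeR adjusted p = 5e-08), and the clones differed by 4.12 (edgeR adjusted p = 9.3e-24). These calls were kept in every alternative that tested the gene, but with 7 to 11 reads in Ako-3 libraries, 1 of them over the low-count filter, the gene was tested there through the other group. CEACAM6, at 1.74, 1.31 and 2.29 CPM in the same groups, was not called. The median log2 fold change over the 4 tested was −0.04 in Ako-3 and 0.50 in Mko-3, against −0.01 over all genes in both.

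The partners of the synaptic genes were read in the same way. Of 6 pentraxins, NPTX1, with which the NPTXR protein assembles, had no read and NPTX2 at most 3 reads in any library. PTX3 was the pentraxin that could be tested, and it was not called by edgeR or DESeq2, though its unadjusted p was under 0.05 in Ako-3 against Huh-7 and between the clones. SHANK2, at 97.9 ± 7.50, 84.8 ± 2.58 and 87.7 ± 0.95 CPM in Huh-7, Ako-3 and Mko-3 (SD, n = 3), was not called, and SHANK1 gave at most 1 read. Over 25 postsynaptic scaffold and adhesion genes, 11 were tested in Mko-3. Of these, 2 were called, both lower, where 7.22% of all genes were called lower. They were the scaffold genes DLG4 (−1.08) and DLGAP3 (−1.42). The DLG4 call was lost without the third Mko-3 library (−0.87). DLGAP3, with 7 to 21 reads in Mko-3 libraries, passed the low-count filter in part through the Huh-7 libraries. In Ako-3 cells none of 13 was called by edgeR or DESeq2, with 5 at an unadjusted p under 0.05. The median log2 fold change of the list was −0.41 in Mko-3 and −0.08 in Ako-3 cells, beside −0.01 over all genes tested.

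REST represses neuronal genes in other tissues together with corepressors. REST itself was measured at 50.9 ± 3.64 CPM in Huh-7, 51.2 ± 3.12 in Ako-3 and 45.8 ± 4.002 in Mko-3 (SD, n = 3). None of the 8 genes of REST and its corepressors was called by edgeR or DESeq2 in any comparison, with 4, 7 and 5 of them at an unadjusted p under 0.05 in Ako-3, in Mko-3 and between the clones. Of 17 neuronal genes known as REST targets, 5 were tested and none was called by either tool, with 4, 2 and 3 at an unadjusted p under 0.05. Neuron markers summed to 20.1 to 25.0 CPM over 8 genes in Huh-7 libraries, 12.3 to 15 in Ako-3 and 14.2 to 18.5 in Mko-3, and DCX had no read in any group. Of the 4 neuron markers tested in Mko-3, 1 was called higher and in Ako-3 1 of 3 was called lower, in both cases MAP2. With 10 to 16 reads in Ako-3 libraries, 2 of them over the low-count filter, MAP2 was tested there in part through the other group. SYT1, a synaptic vesicle protein, had 11.3 ± 0.46 CPM in Huh-7, 7.68 ± 1.10 in Ako-3 and 6.41 ± 0.58 in Mko-3, and GAD1, the enzyme of GABA synthesis, 9.06 ± 1.67, 4.66 ± 0.45 and 5.55 ± 1.20 (SD, n = 3). Both had means below the control in both clones, by less than 2-fold. MAP2, a dendritic microtubule protein, alone had the order of L1CAM and NPTXR among these 3, with 1.80 ± 0.30 CPM in Huh-7, 0.72 ± 0.21 in Ako-3 and 3.73 ± 0.84 in Mko-3 (SD, n = 3). The part of neuronal cells in the levels of L1CAM and NPTXR was not tested. In these bulk samples fewer cells with a transcript and less of it per cell cannot be told apart.

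Among 32 tetraspanins other than TSPAN8, 22 or 23 were tested. In Mko-3 against Huh-7, 1 of 22 was called lower and none higher, where 7.22% and 3.82% of all genes were. Between the clones, 2 of 23 were called higher in Mko-3 and 1 lower, where 2.26% and 3.47% of all genes were. UPK1A, a urothelial tetraspanin, was lower in Mko-3 than in Huh-7 (log2 −1.72) and than in Ako-3 cells (−1.80). With 10 to 19 reads in Mko-3 libraries, 2 of them over the low-count filter, UPK1A was tested in part through the other group. CD9 (1.10) and TSPAN15 (1.06) were higher in Mko-3 than in Ako-3 cells, and the TSPAN15 call was lost without the second Ako-3 library (0.95) or the third Mko-3 library (0.96). None of 23 was called in Ako-3 against Huh-7 by edgeR or DESeq2, with 7 at an unadjusted p under 0.05. Because TSPAN8 and CEACAM7 are genes of the gut lining, 22 intestinal epithelium genes were also read. In Ako-3, 2 of 14 tested were called higher, and in Mko-3 4 of 15, where 3.52% and 3.82% of all genes were. None was called lower against Huh-7, but 3 of 14 in Ako-3 and 6 of 15 in Mko-3 were lower at any size. Between the clones, 1 of 15 was called higher in Mko-3 (KRT20) and 1 lower (TFF3), where 2.26% and 3.47% of all genes were. TFF3, a secreted peptide of mucous cells, rose in Ako-3 (1.87) and was lower in Mko-3 than in Ako-3 (−1.30). LGR5, a receptor of intestinal stem cells, rose in Ako-3 (1.90) and Mko-3 (1.62). EPCAM rose in Mko-3 (1.17). KRT20, a keratin of the gut surface, was called higher there, with 21 to 31 reads per library against 2 to 6 in Huh-7, but it passed the low-count filter through the Mko-3 libraries only and could not have been called lower. CA4 was also called there at 1.06, a call lost without the third Huh-7 library (0.98). The median log2 fold change of the list was 0.44 over 14 tested genes in Ako-3 and 0.31 over 15 in Mko-3, and CDX2, the intestinal transcription factor, was not called at 279, 313 and 250 CPM in Huh-7, Ako-3 and Mko-3.

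The NOD-like receptor family held 21 genes beside NLRP7, of which 8 or 9 were tested. NLRP2 was higher in Ako-3 cells by 3.79 on the log2 scale, at 7.89 ± 0.76 CPM against 0.55 ± 0.21 in Huh-7 and 1.18 ± 0.08 in Mko-3 (SD, n = 3). The call of NLRP2 in Mko-3 (1.04) was lost in 7 of 12 alternatives. NLRC5, an activator of MHC class I genes, was also higher in Ako-3 (1.94). With 6 to 14 reads of NLRP2 and 8 to 14 of NLRC5 in Huh-7 libraries, both passed the low-count filter in Ako-3 against Huh-7 in part through Ako-3. NOD2, a sensor of bacterial muramyl dipeptide, was called higher in Mko-3, with 12 to 16 reads per library against at most 1 in any Huh-7 or Ako-3 library. It too passed the low-count filter through Mko-3 only, so the direction of the call was fixed. CIITA (1.07 in Mko-3) was called by edgeR, but of these 3 called genes in Mko-3 DESeq2 called 1. FAM43B, the relative of FAM43A, had at most 9 reads in a library and was not tested.

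Genes near the 8 on the chromosome were then compared. Within 500 kb there were 372 genes, of which 139 were tested against Huh-7 in each clone. In Ako-3 cells 8 were called higher and 7 lower, where 3.52% and 5.0% of all genes were, and the 8 became 5 without the second Ako-3 library and with DESeq2. In Mko-3 cells 11 were called higher and 10 lower, against 3.82% and 7.22% of all genes. CEACAM5 lies 1.61 kb from the annotated span of CEACAM7, on the other strand, and had the same order of levels. Farther off, CYP2S1, a cytochrome P450 gene, was lower in both clones (−1.16 in Ako-3, −2.10 in Mko-3) and ERICH4 was lower in Mko-3 (−1.44). LGR5 overlaps the span of TSPAN8 on the other strand without sharing exonic bases, and was higher in both clones, at 5.21 ± 2.07, 19.6 ± 1.23 and 16.1 ± 0.37 CPM in Huh-7, Ako-3 and Mko-3 (SD, n = 3). NLRP2 likewise overlaps the span of NLRP7, near which CDC42EP5 was lower in both clones (−1.60 in Ako-3, −1.37 in Mko-3), where NLRP7 was higher, and TMEM86B was lower in Mko-3 than in Ako-3 (−1.14). CBX6, a Polycomb protein gene 17.5 kb from NPTXR, was higher in Mko-3 than in Huh-7 (1.09) and than in Ako-3 cells (1.21). PDGFB, 379 kb from NPTXR, had its order of levels, with 1.53, 0.61 and 2.12 CPM in Huh-7, Ako-3 and Mko-3. It was called lower in Ako-3 (−1.33) and higher in Mko-3 than in Ako-3 (1.75), but was not called in Mko-3 against Huh-7. With 7 to 15 reads in Ako-3 libraries, 2 of them over the low-count filter, it was tested there in part through the other group. CBX6 also had this order of means, at 53.4, 50.2 and 117 CPM, but was not called in Ako-3 against Huh-7 (−0.12). The called neighbours of NPTXR named next did not have this order. The cytidine deaminase genes APOBEC3C (1.04 in Ako-3, 1.48 in Mko-3) and APOBEC3B (1.36 and 2.10) were higher in both clones, and KCNJ4, a potassium channel gene, was lower in Mko-3 (−1.15). The APOBEC3C call in Ako-3 was lost in 4 of 15 alternatives. LIPE-AS1, antisense to part of CEACAM1, was lower in both clones (−1.13 in Ako-3, −2.05 in Mko-3) while CEACAM1 was not lower. The Ako-3 call of LIPE-AS1 was lost without the first Huh-7 library (−0.95). In Mko-3 LIPE-AS1 had 2 to 19 reads per library, with 1 library over the low-count filter. Leaving out each library there gave −3.44 to −1.56. PRR19 (1.37 in Ako-3, 1.17 in Mko-3) and CNFN (−1.03 between the clones), also near CEACAM1, were called by edgeR and not by DESeq2.

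**Figure D3:**
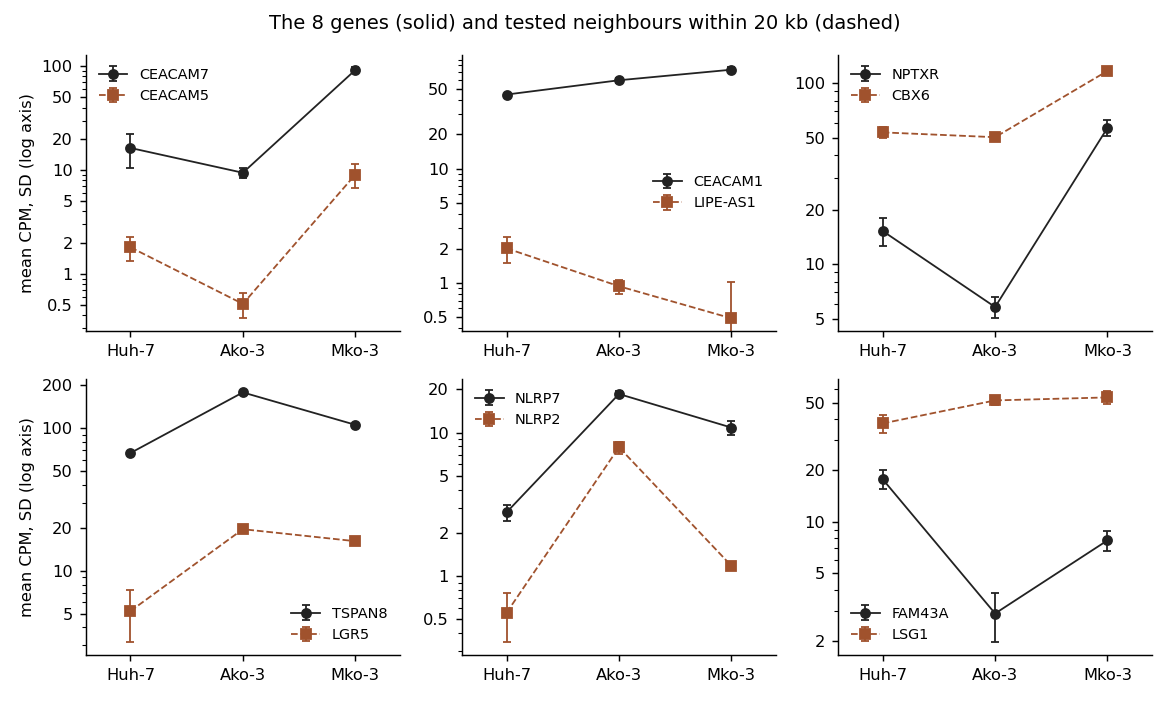
Mean level in CPM (log axis, bars 1 SD of 3 libraries) of 6 of the 8 genes (solid lines) with every tested gene within 20 kb of them (dashed lines), by group. CEACAM5 has the order of CEACAM7, and LGR5 and NLRP2 are highest in Ako-3 as are TSPAN8 and NLRP7. LSG1, beside FAM43A, was not called in any comparison. The lower bar of LIPE-AS1 in Mko-3 passes 0 and leaves the log axis.

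Around L1CAM, FLNA, the gene of the actin cross-linker filamin A, was higher in Mko-3 (1.28), at 462 kb, as was CCNQ (1.04, a call lost in 4 of 15 alternatives), and RENBP differed between the clones (1.81). RENBP and PRR19 passed the low-count filter through their higher group only, and the RENBP call was lost without the second Ako-3 library. None of 17 tested neighbours near L1CAM was called in Ako-3 by edgeR or DESeq2, with 10 at an unadjusted p under 0.05. Around SHANK3, 1 of 32 tested genes was called higher and 4 lower in Mko-3, where 3.82% and 7.22% of all genes were. DESeq2 called 2 of them lower. AL022328.4 (−1.59) and the deacetylase gene HDAC10 (−1.21) kept their calls in every alternative that tested them, whereas those of KLHDC7B (−1.01) and AL022328.3 (−1.08) were lost in 7 of 13 and 7 of 14. The median of the 32 was −0.25. PTPRR, a phosphatase gene 204 kb from TSPAN8, was higher in Mko-3 (1.54). None of the 7 tested neighbours of FAM43A was called by edgeR or DESeq2 in any comparison, with 4, 6 and 3 at an unadjusted p under 0.05 in Ako-3, in Mko-3 and between the clones.

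Finally, the genes whose levels followed each of the 8 most closely were named by the root mean square difference of their centred log2 CPM over the 9 libraries, among 14351 genes. SHANK3 was followed most closely by MTTP itself, the gene edited in Mko-3 (0.17), and then by HMCN2 (0.20). L1CAM had no close match, the nearest being LINGO1, a leucine-rich repeat protein of neurons (0.69), and S1PR3, a sphingosine 1-phosphate receptor (0.86). CEACAM7 was followed by ANXA1, an annexin (0.22), and NPTXR by PRSS23, a serine protease (0.24), and the long noncoding RNA UCA1 was the second match of both (0.29 and 0.25). The matches of TSPAN8 were PROC, the gene of protein C (0.08), and CCR1 (0.09). NLRP7 was followed by AC079466.1 (0.17). FAM43A was nearest to MT1F, a metallothionein (0.16), and HS3ST3A1 (0.22), and CEACAM1 to MTCL1 (0.03) and ANKEF1 (0.06). Among the 8 themselves the closest pair was CEACAM7 and NPTXR, at 0.41. These measures describe 9 libraries in 3 groups, in which any gene that differs between groups in the same order and by similar amounts comes close.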

How the data were processed

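RNA was measured in 9 libraries, 3 each of Huh-7, Ako-3 and Mko-3 cells, grouped by the cell line and genotype in their labels. Paired reads had been mapped to hg38 by the authors (HISAT2 2.0.5) and summed per gene as counts (featureCounts 1.5.0-p3). The deposited counts are not normalized. The deposited FPKM values are counts divided by gene length and a library size that, from the values, is the DESeq2 size factor times a constant. In 27 entries the gene name had become a date, and these were handled by identifier. No strand setting is given in the sources used here.

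Each comparison was fitted to its 6 libraries with edgeR 4.0.16 in R 4.3.3 (TMM, a low-count filter with filterByExpr set to 10 counts, the robust quasi-likelihood F test, Benjamini-Hochberg adjustment over all genes tested). Calls needed a 2-fold change (1 on the log2 scale) and an adjusted p no higher than 0.05. CPM were scaled by TMM over the 9 libraries. The SE of a fold change was derived from the same fit, as the size of the log2 fold change divided by the square root of its F statistic. Alternatives were DESeq2 1.42.0, RLE or no composition scaling, other filters, a replicate block, 1 fit over all libraries, limma 3.58.1 on log2(FPKM + 1) and log2(FPKM + 0.1), and leaving out each library. The steps were tested on simulated data.

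The 8 genes, the 10 lists of relatives and the 5 lists of cell type markers were chosen with earlier results of these data known. Named are the 8 genes, APOB, MTTP, REST, the nearest relatives, the called genes of each list and neighbourhood with the smallest adjusted p (up to 3), and the 2 genes most like each of the 8. One such match is not reported here. PTX3, CDX2, LSG1, SYT1, GAD1, APOBEC3B and AL022328.3 were named after their values were seen. Of the markers not described above, APOH was called higher in Ako-3 cells among the hepatocyte genes, and COL1A2 lower in both clones among the fibroblast genes. In the Mko-3 comparison COL1A2 (5 to 8 reads per Mko-3 library) passed the low-count filter through the Huh-7 libraries only and could not have been called higher. In Ako-3 it had 0 to 15 reads per library, with 1 library over the filter. Endothelial markers summed to 55.3 to 114 CPM, nearly all of it PECAM1, with KDR and TEK without a read. Leukocyte markers summed to 262 to 357 CPM, nearly all of it LYZ, with CD68 without a read. Their part in the results was not tested.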

Additional observations from a re-analysis of the deposited data

Results flagged for a closer look

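L1CAM and NPTXR moved in opposite directions in the 2 clones, every Ako-3 library lying below and every Mko-3 library above the controls. The difference between the clones was 5.61 for L1CAM and 3.27 for NPTXR on the log2 scale. As both genes were chosen on these contrasts, the difference was not tested. CEACAM5 and MAP2 also went down in Ako-3 and up in Mko-3 cells, and here the difference between the clones itself was tested. It was 4.12 for CEACAM5 (edgeR adjusted p = 9.3e-24) and 2.37 for MAP2 (edgeR adjusted p = 1.1e-10), and all 3 Mko-3 libraries were higher than all 3 Ako-3 libraries of each gene. CEACAM5 and MAP2 are singled out here for this order of levels, so the p-values are descriptive. In Ako-3 they had 7 to 11 and 10 to 16 reads per library and passed the low-count filter in part through the other group. MAP2 stood apart from the other neuron markers tested against both, as SYT1 (11.3, 7.68 and 6.41 CPM in Huh-7, Ako-3 and Mko-3) and GAD1 (9.06, 4.66 and 5.55) were below the control in both clones. The rise of MAP2 in Mko-3 over Huh-7 (1.02, edgeR adjusted p = 0.0013) was lost without the third Huh-7 library (0.90), without the first Mko-3 library (0.86) and with scaling by library size alone (0.95).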

How the results depend on the processing

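No fold change named here reversed under any alternative. Of the fold changes of the 8 genes under alternatives, 333 moved by less than the spread between libraries and 23 by more. Besides CEACAM7 without the second Huh-7 library (−1.10), those that crossed the 2-fold threshold did so on the log2(FPKM + 1) scale, namely NPTXR in Ako-3 (−0.87) and FAM43A in Mko-3 (−0.99) and between the clones (0.94). At a log2 threshold of 2, 3 departed in Ako-3 and 2 in Mko-3 cells. The number of genes called (1345 in Ako-3, 1739 in Mko-3 and 890 between the clones) fell to 841, 1113 and 511 when 10 counts were required in every library, which tests fewer genes. With limma it was 330, 452 and 194 on log2(FPKM + 1) and 623, 869 and 343 on log2(FPKM + 0.1). The cause was not tested. Calls in the fixed lists (8, 14 and 13) became 5 in Ako-3 and 7 in Mko-3 with 10 counts in every library, 3, 4 and 3 with log2(FPKM + 1), and 3, 5 and 7 with log2(FPKM + 0.1). Leaving out each library gave 8 to 13 in Ako-3, the 13 being without the second Huh-7 library. Calls within 500 kb (15, 21 and 10) became 8 in Ako-3 and 5 between the clones with 10 counts in every library, 2, 8 and 3 with log2(FPKM + 1), and 6, 13 and 5 with log2(FPKM + 0.1). Same-numbered libraries did not deviate together (correlations of −0.07 to 0.06), so the numbers do not pair them. With a replicate block 1336, 1730 and 899 genes were called. Of 73 calls among the other genes, 43 were kept in every alternative that tested them and 30 were lost in at least 1. Genes with under about 10 reads in most libraries could not be tested at this depth.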
